A study of Rattus norvegicus with 10 samples.

Results

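The genes described here are 45 genes of mitosis and cytokinesis, picked by name for their part in mitotic entry, the spindle, the spindle checkpoint and the final separation of daughter cells. They were chosen with earlier results of these data known, so counts over them are a description and not an independent test. The deposited table lists 44 of them among its 18025 genes, and Ncaph was not analysed here. All 44 passed the filter for testing, an average of 0.1 FPKM or more, which 14542 genes of the table passed. FPKM sets a gene's reads against its length and the size of the library. The member closest to the filter was Cdc25c with a mean of 2.86 FPKM, and no listed member lay under it.

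The hearts were taken at embryonic day 19.5 from wild-type Sprague-Dawley fetuses, 5 libraries for each group. Dams of the hyperglycemia (HG) group had been made diabetic with streptozotocin, a compound toxic to insulin-producing cells, injected into the abdominal cavity in citric acid buffer on 3 days in a row. Control (CON) dams received the buffer alone on the same schedule. All parents were 3 months old, and the fathers were normoglycemic. By the study's methods the injections followed mating, whereas its introduction speaks of hyperglycemia induced before pregnancy. Effects of streptozotocin and of high glucose cannot be told apart in this design. Diabetes was defined as a blood glucose above 16 mM at 7 days after the injections, without fasting. The labels call the material heart tissue, while a figure legend of the study speaks of isolated cardiomyocytes. Neither the litter nor the sex of a fetus is given. Summed over 4 genes of the Y chromosome, CON replicates 1 and 4 and HG replicates 1 and 3 had 38.0 to 44.4 FPKM. Every other library had at most 0.961 FPKM. The study's methods mention pooled RNA although the table holds a separate value for each library. The p-values therefore measure the spread between these libraries only.

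Entry into mitosis is driven by cyclin-dependent kinase 1 bound to A- and B-type cyclins, which phosphatases of the Cdc25 family switch on. Spindle microtubules then attach to chromosomes at kinetochores, a checkpoint delays anaphase until all are attached, and the anaphase-promoting complex ends mitosis by marking cyclin B and securin for destruction. Many of these genes share a promoter logic: the MuvB complex binds a short cell cycle genes homology region (CHR) and, with B-Myb and FoxM1 or with the DREAM repressor proteins, turns them on late in the cycle or keeps them off in resting cells, and many also carry CCAAT boxes bound by NF-Y. Fetal cardiomyocytes still divide, and most of them stop doing so shortly after birth.

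Promoters are shown for the 3 members with the smallest adjusted p in HG against CON, Ccnb1, Ccnb2 and Birc5, and for the member with the largest, Cdc25b, so that promoters from both ends of the order by adjusted p can be compared. Each line gives the 250 bases before the RefSeq start site in build GRCr8, 5′ to 3′ on the gene's strand, and capitals mark CHR strings (TTTGAA or TTCGAA, either strand) and CCAAT (either strand, so that ATTGG is capitalised too).
Ccnb1, chr2:33655226-33655475, minus strand: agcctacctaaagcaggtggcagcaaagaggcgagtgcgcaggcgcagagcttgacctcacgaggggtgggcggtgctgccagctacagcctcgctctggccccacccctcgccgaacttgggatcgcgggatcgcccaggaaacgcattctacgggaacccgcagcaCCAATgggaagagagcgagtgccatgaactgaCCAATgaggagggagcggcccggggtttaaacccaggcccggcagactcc
Ccnb2, chr8:79981659-79981908, minus strand: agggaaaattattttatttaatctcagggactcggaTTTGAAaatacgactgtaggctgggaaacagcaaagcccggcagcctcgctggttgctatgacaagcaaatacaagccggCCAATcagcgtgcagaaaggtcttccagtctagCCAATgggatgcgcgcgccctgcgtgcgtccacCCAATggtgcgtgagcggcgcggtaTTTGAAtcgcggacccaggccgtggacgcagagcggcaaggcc
Birc5, chr10:103571896-103572145, plus strand: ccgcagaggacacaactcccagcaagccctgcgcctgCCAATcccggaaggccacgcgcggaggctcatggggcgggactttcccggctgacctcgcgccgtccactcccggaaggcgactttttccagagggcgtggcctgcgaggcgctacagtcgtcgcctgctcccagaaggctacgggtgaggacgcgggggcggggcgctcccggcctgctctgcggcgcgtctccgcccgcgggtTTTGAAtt
Cdc25b, chr3:138859923-138860172, plus strand: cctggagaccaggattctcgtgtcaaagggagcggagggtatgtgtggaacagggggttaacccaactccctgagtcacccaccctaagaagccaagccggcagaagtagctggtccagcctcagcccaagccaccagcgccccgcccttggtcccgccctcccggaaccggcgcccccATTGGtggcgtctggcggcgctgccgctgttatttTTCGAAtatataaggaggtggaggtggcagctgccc
The first letter of the CCAAT strings of Ccnb2 lay 134, 101 and 68 bases before the start site, with CHR strings at 214 and 43 bases. Ccnb1 had CCAAT at 82 and 50 bases and no CHR string in the window. Birc5 had CCAAT at 213 and a CHR string at 8 bases. Cdc25b, whose RNA did not pass the test, had both kinds of string as well, with the palindromic TTCGAA at 36 bases and an inverted CCAAT at 71 bases.

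RefSeq promoters of 300 bases, 250 before and 50 after the start, were matched by NCBI Gene identifier for 37 of the 44 members. Those without an entry were Ccna2, Foxm1, Aurkb, Incenp, Tpx2, Racgap1 and Ube2c. A CHR string was found in 29 of the 37 (78.4%) and in 19.5% of all 27457 promoters. CCAAT was found in 28 (75.7%), against 37.7% of all promoters, and both strings together in 24 (64.9%), against 7.83%. At least 2 CCAAT strings were present in 19 members (51.4%) and in 11.5% of all promoters. An E2F-like string, GCGGGAA or GCGCGAA on either strand, was found in 3 members (8.11%), against 5.88%. CHR strings stood in 13.9% of the 11733 promoters that belong to tested genes, and both strings in 5.77%. Nearly all members were called higher, so the strings could hardly sort them by call. Their relation to the size of the change within the members was not tested. The median log2 fold change was 0.44 over the 24 members with both and 0.42 over the 4 with neither, which were Aurka, Mybl2, Bub1 and Kif2c. Among genes outside the lists of cell cycle genes used here, 33.4% of the 620 with both strings were called higher, against 28.1% of all 11529 with a promoter. These are matches of letters, not mapped binding sites.

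The mitosis and cytokinesis genes were higher in HG hearts almost without exception. Of the 44 members, 43 rose and 0 fell (limma on log2(FPKM + 0.1), Benjamini-Hochberg adjusted p under 0.05 over all genes tested), whereas 28.4% of all genes tested were called higher and 11.8% lower, 40.1% in all. The remaining gene was Cdc25b. Increases were moderate, between 1.18-fold for Mki67 and 1.79-fold for Cenpa. The median log2 fold change was 0.44 over the 44 members beside 0.09 over all genes tested. No member reached the fold of the study's methods, a log2 fold change above 1, which 0.866% of genes passed upward and 1.07% downward. Counts at an unadjusted p under 0.05 were the same, 43 higher and 0 lower. In every one of the 43 genes the lowest HG library lay above the highest CON library, a pattern found in 19.3% of genes tested, and the reverse pattern in 8.12%. In RNA of whole hearts, a larger number of dividing cells and more RNA of these genes in each dividing cell cannot be told apart.

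**Figure D1:**
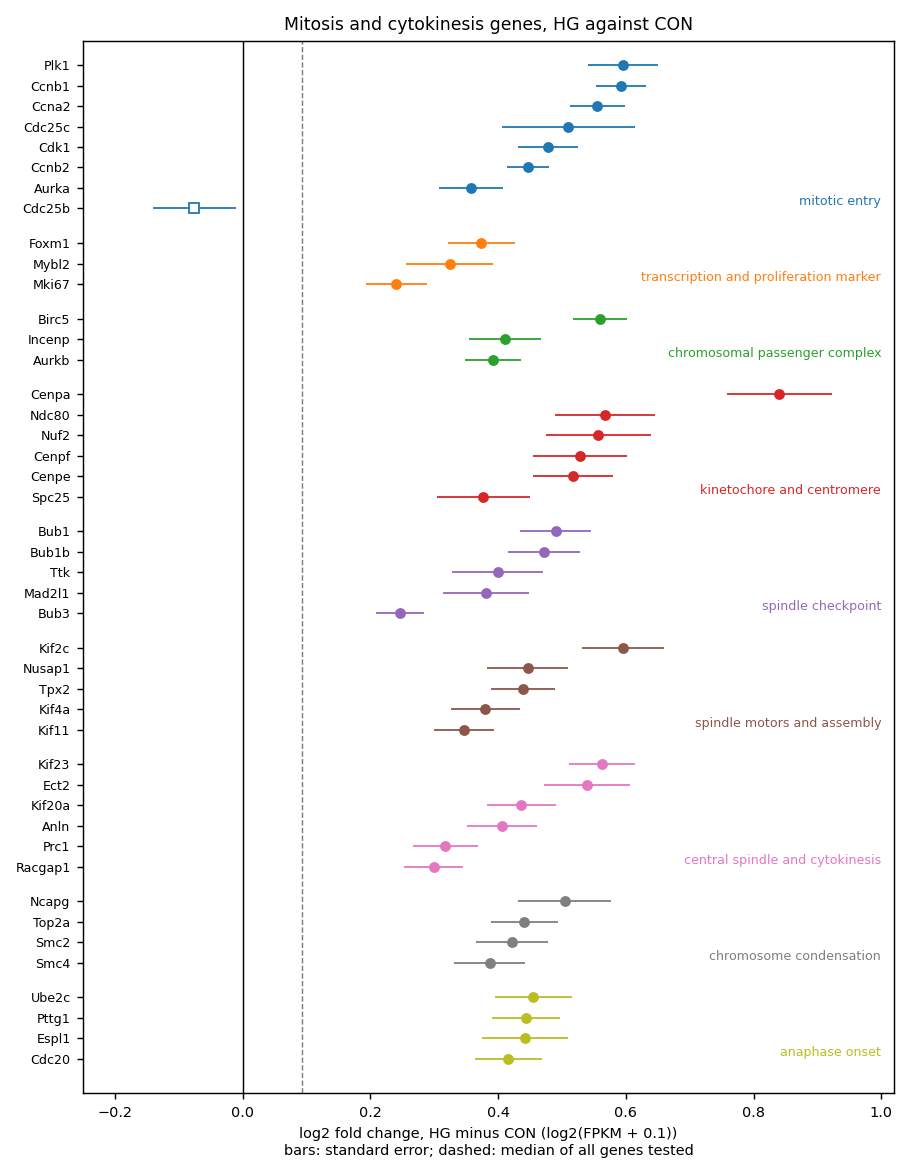
Log2 fold change of each of the 44 genes (horizontal axis, HG minus CON on log2(FPKM + 0.1)) with its standard error, grouped and coloured by role. Filled circles passed the test and the open square, Cdc25b at -0.08, did not. The dashed line at 0.09 is the median of all genes tested, and the 43 filled circles lie between 0.24 and 0.84.

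Scaling of the libraries changed the size of the increases and not the number of calls. With median-of-ratios factors the median over all genes was 0.01, that of the members 0.35, and 43 members were higher while 15.6% of all genes were. After quantile normalization the medians were 0.02 and 0.40, again with 43 members higher. The 43 calls were also made in voom on recovered reads and in each of the 10 fits that left out a library.

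Genes of mitotic entry comprised 8 members, of which 7 rose. Ccnb1 encodes cyclin B1, the main partner of Cdk1 in mitosis, and had the smallest adjusted p of the whole list. Ccnb1 was at 34.9, 34.7, 31.7, 33.1 and 32.5 FPKM in CON replicates 1 to 5 and at 48.1, 49.8, 50.5, 53.3 and 50.3 FPKM in HG replicates 1 to 5. All 5 HG libraries lay above all 5 CON libraries, by 13.1 FPKM or more. Group means were 33.4 ± 1.40 for CON against 50.4 ± 1.88 FPKM for HG (SD, n = 5). The increase was 0.59 ± 0.0398 on the log2 scale (SE, limma, adjusted p = 1.20e-06).
Plk1, the polo-like kinase that activates cyclin B1-Cdk1 and acts again at centrosomes, kinetochores and the midzone, changed by a like amount. Plk1 had 33.2, 33.1, 31.8, 36.7 and 36.4 FPKM in the CON libraries, in the order of their numbers, and 50.6, 52.5, 53.2, 55.9 and 46.8 FPKM in the HG libraries. On average CON had 34.2 ± 2.196 and HG 51.8 ± 3.37 FPKM (SD, n = 5). Its increase was 0.60 ± 0.0549 on the log2 scale (SE, limma, adjusted p = 9.52e-06). The widest distance within HG was that between replicates 4 and 5, and replicate 5 was still above all CON libraries.
The other kinase and cyclin genes followed. Cdk1 itself went from 80.1 ± 5.52 to 111 ± 3.17 FPKM, Ccna2 (cyclin A2) from 50.5 ± 1.29 to 74.3 ± 4.62 FPKM, Ccnb2 (cyclin B2) from 36.7 ± 0.727 to 50.03 ± 1.40 FPKM and Aurka, the centrosomal Aurora kinase, from 18.2 ± 0.414 to 23.5 ± 1.70 FPKM. Their log2 fold changes were 0.48, 0.56, 0.45 and 0.36.
The Cdc25 phosphatases differed in their calls, while the ratio of Cdc25c to Cdc25b, given below, did not pass its test. In CON, Cdc25b measured 35.6, 34.4, 28.0, 30.9 and 30.5 FPKM by replicate number, and in HG 29.3, 32.9, 29.7, 30.9 and 28.0 FPKM. The groups overlapped, CON replicates 1 and 2 were the highest of all libraries, and the lowest library of each group was at 28.03 and 27.97 FPKM. This gave a mean of 31.9 ± 3.06 for CON and of 30.2 ± 1.85 FPKM for HG (SD, n = 5). The difference was -0.08 ± 0.0655 on the log2 scale (SE, limma, adjusted p = 0.386). Cdc25c, at a far lower level in FPKM, rose from 2.34 ± 0.284 to 3.37 ± 0.388 FPKM, a log2 change of 0.51 ± 0.104 (SE, limma, adjusted p = 0.00216). Cdc25a, the third phosphatase and not a member, rose too, with a log2 change of 0.37 (adjusted p = 9.22e-05). The kinases that oppose them, Wee1 and Pkmyt1, were also called higher, with 0.22 (adjusted p = 0.00949) and 0.37 (adjusted p = 0.00171). Wee1 lost its call under 2 other scalings, median-of-ratios factors (0.13, adjusted p = 0.105) and quantile normalization (0.13, adjusted p = 0.0961). Cdc25a, Wee1 and Pkmyt1 were chosen after the value of Cdc25b was seen.

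Of the regulators of transcription, Foxm1 and Mybl2, and the proliferation marker Mki67, all 3 rose, by less than most other members. Foxm1 encodes the forkhead factor that activates late cell cycle genes. Foxm1 was at 19.2, 19.1, 17.6, 19.8 and 20.2 FPKM in CON replicates 1 to 5 and at 25.9, 23.8, 25.1, 26.8 and 22.9 FPKM in HG replicates 1 to 5. HG replicate 5 was the lowest of its group and still above the highest CON library, replicate 5. The CON mean was 19.2 ± 0.964 and the HG mean 24.9 ± 1.57 FPKM (SD, n = 5). The increase was 0.37 ± 0.0521 on the log2 scale (SE, limma, adjusted p = 0.000176). Mybl2 encodes B-Myb, the MuvB partner in S phase and G2. Mybl2 had 12.4, 12.2, 11.9, 14.1 and 13.0 FPKM in the CON libraries, in the order of their numbers, and 16.0, 14.7, 15.2, 18.7 and 15.3 FPKM in the HG libraries. The lowest HG library stood only slightly above CON replicate 4. Group means were 12.7 ± 0.861 for CON against 16.0 ± 1.58 FPKM for HG (SD, n = 5). The change was 0.32 ± 0.0684 on the log2 scale (SE, limma, adjusted p = 0.00265). Mki67, which codes for the Ki-67 coat protein of mitotic chromosomes, went from 41.4 ± 1.52 to 49.0 ± 3.15 FPKM, and its log2 fold change of 0.24 was the smallest of the called members (adjusted p = 0.00169). Between 7344 and 9651 reads per library stood behind its value, the most of any member.

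The chromosomal passenger complex corrects faulty attachments and guides cytokinesis, and its 3 members rose. Birc5 encodes survivin, which brings the complex to centromeres. In CON, Birc5 measured 23.2, 22.3, 20.8, 23.2 and 21.3 FPKM by replicate number, and in HG 31.4, 32.1, 33.7, 34.0 and 32.5 FPKM. Both groups were tight and did not overlap. On average CON had 22.2 ± 1.09 and HG 32.7 ± 1.11 FPKM (SD, n = 5). The increase was 0.56 ± 0.0426 on the log2 scale (SE, limma, adjusted p = 2.47e-06). Incenp, the scaffold of the complex, varied more within groups. Incenp was at 17.3, 17.3, 15.7, 18.1 and 18.9 FPKM in CON replicates 1 to 5 and at 23.8, 21.0, 24.3, 23.9 and 23.2 FPKM in HG replicates 1 to 5. HG replicate 2 came closest to CON, where replicate 5 was highest. This gave a mean of 17.5 ± 1.198 for CON and of 23.2 ± 1.33 FPKM for HG (SD, n = 5). Its change was 0.41 ± 0.0565 on the log2 scale (SE, limma, adjusted p = 0.000159). The catalytic subunit gene Aurkb went from 33.2 ± 1.77 to 43.5 ± 1.79 FPKM, a log2 change of 0.39 (adjusted p = 4.25e-05).

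Kinetochore and centromere genes held the largest change of the list, and all 6 rose. Cenpa encodes the histone H3 variant that marks centromeres. Cenpa had 7.40, 7.80, 7.06, 8.39 and 9.14 FPKM in the CON libraries, in the order of their numbers, and 13.2, 13.2, 15.2, 13.6 and 16.5 FPKM in the HG libraries. Each HG library exceeded each CON library, by 4.03 FPKM or more. The CON mean was 7.96 ± 0.827 and the HG mean 14.3 ± 1.46 FPKM (SD, n = 5). The fold change was 0.84 ± 0.0822 on the log2 scale (SE, limma, adjusted p = 1.54e-05).
Ndc80 is the subunit of the kinetochore that binds microtubules. In CON, Ndc80 measured 11.97, 11.7, 11.1, 11.0 and 11.1 FPKM by replicate number, and in HG 14.5, 16.3, 16.1, 17.4 and 20.7 FPKM. HG replicate 5 was the highest and HG replicate 1 the lowest of the HG libraries. Group means were 11.4 ± 0.435 for CON against 17.0 ± 2.31 FPKM for HG (SD, n = 5). The change was 0.57 ± 0.0784 on the log2 scale (SE, limma, adjusted p = 0.000166). Spc25, of the same complex, had the largest adjusted p of this role. Spc25 was at 15.5, 14.98, 14.1, 15.1 and 13.8 FPKM in CON replicates 1 to 5 and at 17.8, 17.2, 17.6, 21.5 and 22.0 FPKM in HG replicates 1 to 5. HG replicates 4 and 5 lay apart from the other three. On average CON had 14.7 ± 0.712 and HG 19.2 ± 2.28 FPKM (SD, n = 5). The increase was 0.38 ± 0.0729 on the log2 scale (SE, limma, adjusted p = 0.00157). Nuf2, the partner of Ndc80, went from 19.5 ± 2.09 to 28.6 ± 2.75 FPKM, which is 0.56 on the log2 scale. Cenpe, a kinesin of the kinetochore, and Cenpf, of its outer corona, had 0.52 and 0.53.

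**Figure D2:**
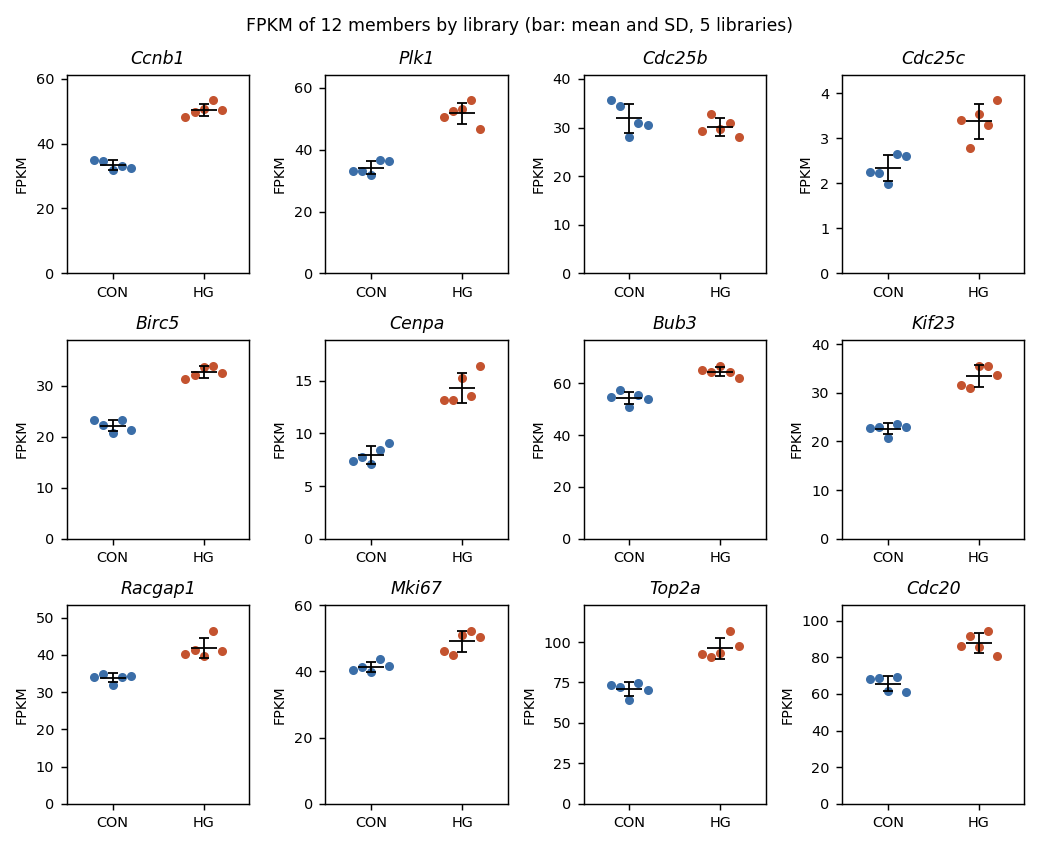
FPKM (vertical axes, from 0) of 12 genes in every library, with CON in blue, HG in orange, and the mean with its SD over 5 libraries in black. Cdc25b overlapped between the groups, with means of 31.9 and 30.2 FPKM, and in the other 11 genes each HG library was above each CON library.

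In the spindle checkpoint, which holds back anaphase, 5 of 5 members rose. Bub1 encodes a kinase that recruits checkpoint proteins to kinetochores. Bub1 had 22.9, 22.6, 19.5, 21.9 and 20.6 FPKM in the CON libraries, in the order of their numbers, and 28.7, 27.9, 31.5, 32.1 and 31.0 FPKM in the HG libraries. The lowest CON library was replicate 3, and the lowest HG library, replicate 2, lay above all of CON. This gave a mean of 21.5 ± 1.40 for CON and of 30.2 ± 1.82 FPKM for HG (SD, n = 5). The change was 0.49 ± 0.0550 on the log2 scale (SE, limma, adjusted p = 4.05e-05). Ttk, the kinase Mps1 that starts the checkpoint signal, came last in this role by adjusted p. In CON, Ttk measured 12.5, 12.03, 11.2, 12.3 and 13.4 FPKM by replicate number, and in HG 16.5, 14.1, 16.6, 18.7 and 15.5 FPKM. HG replicate 2 was only slightly above CON replicate 5, and HG replicate 4 was the highest. The CON mean was 12.3 ± 0.779 and the HG mean 16.3 ± 1.69 FPKM (SD, n = 5). Its increase was 0.40 ± 0.0713 on the log2 scale (SE, limma, adjusted p = 0.000932). Bub1b (BubR1) and Mad2l1 (Mad2), both parts of the inhibitor of the anaphase-promoting complex, had log2 fold changes of 0.47 and 0.38. Bub3, which carries both Bub1 and BubR1, was the most abundant of the role and rose least, from 54.4 ± 2.32 to 64.5 ± 1.76 FPKM, a log2 change of 0.25 (adjusted p = 0.000307).

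Of the spindle motors and assembly factors, 5 of 5 rose. Kif2c encodes MCAK, a kinesin that shortens microtubules at centromeres. Kif2c was at 20.8, 18.7, 16.0, 18.7 and 18.6 FPKM in CON replicates 1 to 5 and at 25.7, 27.1, 28.6, 29.1 and 29.8 FPKM in HG replicates 1 to 5. CON replicate 1 and HG replicate 1 were the nearest across the groups, which did not overlap. Group means were 18.6 ± 1.69 for CON against 28.1 ± 1.63 FPKM for HG (SD, n = 5). The increase was 0.60 ± 0.0645 on the log2 scale (SE, limma, adjusted p = 3.09e-05). Nusap1 binds and bundles spindle microtubules near chromosomes. Nusap1 had 34.2, 32.7, 29.7, 31.5 and 29.3 FPKM in the CON libraries, in the order of their numbers, and 39.1, 39.6, 42.3, 47.9 and 45.9 FPKM in the HG libraries. Replicates 4 and 5 were the highest of HG. On average CON had 31.4 ± 2.06 and HG 42.9 ± 3.84 FPKM (SD, n = 5). Its change was 0.45 ± 0.0635 on the log2 scale (SE, limma, adjusted p = 0.000204). Kif11 (Eg5), which pushes spindle poles apart, Kif4a, a chromosome-bound kinesin, and Tpx2, the activator of Aurora A, had log2 fold changes of 0.35, 0.38 and 0.44.

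The 6 genes of the central spindle and cytokinesis rose too. Kif23 (MKLP1) is the motor of centralspindlin, which bundles midzone microtubules and sets the site of the cleavage furrow. In CON, Kif23 measured 22.8, 23.0, 20.7, 23.6 and 23.1 FPKM by replicate number, and in HG 31.6, 30.9, 35.6, 35.6 and 33.8 FPKM. CON replicate 3 was the lowest, and the other CON libraries lay within 1 FPKM of each other. This gave a mean of 22.6 ± 1.11 for CON and of 33.5 ± 2.202 FPKM for HG (SD, n = 5). The change was 0.56 ± 0.0520 on the log2 scale (SE, limma, adjusted p = 9.83e-06). Prc1 cross-links the antiparallel microtubules of the midzone. Prc1 was at 81.3, 74.0, 70.1, 72.1 and 72.6 FPKM in CON replicates 1 to 5 and at 88.4, 87.0, 90.7, 102 and 92.8 FPKM in HG replicates 1 to 5. HG replicate 4 was the highest of all libraries. The CON mean was 74.0 ± 4.32 and the HG mean 92.3 ± 6.10 FPKM (SD, n = 5). Its increase was 0.32 ± 0.0514 on the log2 scale (SE, limma, adjusted p = 0.000486). Kif20a (MKLP2) carries the passenger complex to the midzone, and its log2 fold change was 0.44. Ect2 activates RhoA at the furrow and had 0.54, anillin (Anln), the scaffold of the contractile ring, had 0.41, and Racgap1, the other subunit of centralspindlin, had 0.30.

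Chromosome condensation was represented by 4 measured members, which rose. Top2a, the topoisomerase that untangles sister chromatids, was among the most abundant genes of the list. Top2a had 73.2, 72.1, 63.9, 74.7 and 70.1 FPKM in the CON libraries, in the order of their numbers, and 92.7, 90.9, 93.1, 107 and 97.4 FPKM in the HG libraries. CON replicate 3 was the lowest and HG replicate 4 the highest of all libraries. Group means were 70.8 ± 4.21 for CON against 96.2 ± 6.45 FPKM for HG (SD, n = 5). The increase was 0.44 ± 0.0530 on the log2 scale (SE, limma, adjusted p = 6.45e-05). Smc4 and Smc2 form the core of condensin. In CON, Smc4 measured 39.9, 38.9, 37.8, 41.0 and 40.5 FPKM by replicate number, and in HG 50.6, 46.1, 50.2, 58.1 and 54.9 FPKM. HG replicate 2 was the lowest and HG replicate 4 the highest of a group that lay wholly above CON. On average CON had 39.6 ± 1.25 and HG 52.0 ± 4.61 FPKM (SD, n = 5). The change was 0.39 ± 0.0559 on the log2 scale (SE, limma, adjusted p = 0.000225). Smc2 and the condensin I subunit gene Ncapg had log2 fold changes of 0.42 and 0.50.

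All 4 genes of anaphase onset rose, within a narrow range of log2 fold changes from 0.42 to 0.46. Pttg1 encodes securin, the inhibitor of separase. Pttg1 was at 34.5, 32.0, 30.2, 28.4 and 28.8 FPKM in CON replicates 1 to 5 and at 41.4, 39.8, 42.7, 43.7 and 41.5 FPKM in HG replicates 1 to 5. CON replicate 1 was the nearest to HG, and the groups did not overlap. This gave a mean of 30.8 ± 2.49 for CON and of 41.8 ± 1.49 FPKM for HG (SD, n = 5). Its change was 0.44 ± 0.0530 on the log2 scale (SE, limma, adjusted p = 6.24e-05). Espl1 encodes separase, the protease that cuts cohesin. Espl1 had 9.52, 8.78, 8.95, 10.5 and 10.8 FPKM in the CON libraries, in the order of their numbers, and 13.6, 12.4, 14.4, 13.2 and 12.4 FPKM in the HG libraries. HG replicates 2 and 5 were the lowest of HG and lay above CON replicate 5, the highest of CON. The CON mean was 9.70 ± 0.892 and the HG mean 13.2 ± 0.833 FPKM (SD, n = 5). The change was 0.44 ± 0.0675 on the log2 scale (SE, limma, adjusted p = 0.000326). Cdc20, the activator of the anaphase-promoting complex, went from 65.7 ± 4.16 to 87.7 ± 5.39 FPKM, and Ube2c, its ubiquitin-conjugating enzyme, from 79.4 ± 4.74 to 109 ± 9.24 FPKM.

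Level and change were only weakly related among the members. Mean levels ran from 2.86 FPKM for Cdc25c to 95.8 FPKM for Cdk1 (median 27.8), and Spearman's rho between mean level and log2 fold change was -0.13 across the 44 genes, which share their libraries and are not independent. Each value rested on 200 to 9651 reads per library, with a median of 1627. The coefficient of variation within a group had a median of 6.14% in CON and 6.45% in HG and was at most 13.6%. Summed over the 44 genes, the level was 1306 ± 55.0 FPKM in CON (range 1216 to 1352) and 1760 ± 77.1 FPKM in HG (range 1691 to 1885; SD, n = 5 libraries per group). This is 0.280 ± 0.0107% of all FPKM in CON and 0.388 ± 0.0148% in HG.

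Many members were lowest or highest in the same libraries, and the matching shares over all genes tested were not counted. CON replicate 3 was the lowest CON library in 31 of the 44 genes, with a median deviation of -0.10 on the log2 scale from the CON mean. HG replicate 4 was the highest of its group in 31 genes (median deviation 0.10 from the HG mean), and HG replicate 2 the lowest in 24 (-0.08). These deviations were small beside the distance between the groups, since HG replicate 2 still had a median of 0.35 above the CON mean. Without CON replicate 3 the median log2 fold change of the list was 0.41, and without HG replicate 4 it was also 0.41, with 43 members called higher in both fits.

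**Figure D3:**
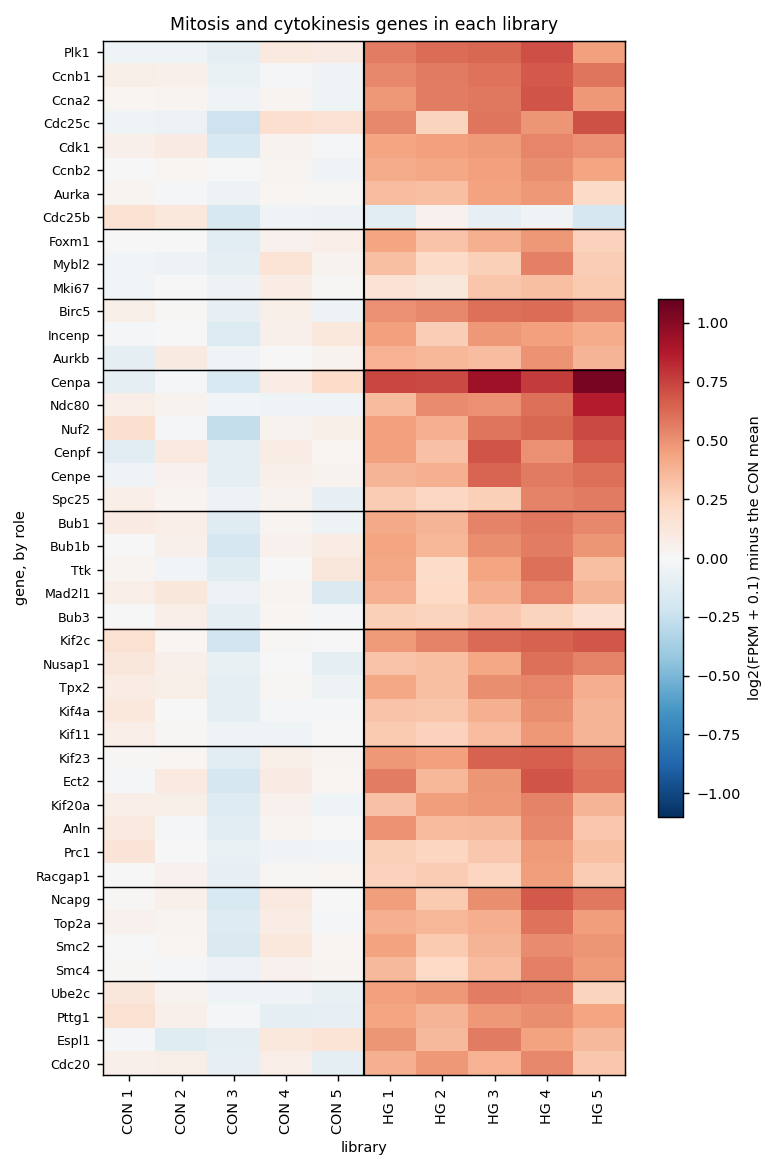
Each row is a gene, ordered by role (black lines), and each column a library; colour gives log2(FPKM + 0.1) minus the gene's CON mean. The HG columns are red in every row except Cdc25b, and CON replicate 3 is the bluest column of CON, at a median of -0.10.

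Members of a shared complex, or with related roles such as the B-type cyclins or the Cdc25 phosphatases, were set against each other within each library, which removes the scaling of the library. Of 16 ratios, chosen after the values of the genes were seen, 5 differed between CON and HG (two-sided exact permutation test over all divisions of the libraries, p = 0.00794, the smallest that 5 against 5 allow, adjusted p = 0.0254 over the 16). For the 2 subunits of centralspindlin, Racgap1 to Kif23, the ratio of FPKM was 1.499 ± 0.0344 in CON and 1.25 ± 0.0861 in HG (SD, n = 5; log2 difference -0.26). This was the only one of the 5 that kept an adjusted p under 0.05 with either other pseudocount and with any library left out. In all 5 the ratios of CON and HG did not overlap, which the smallest exact p already requires and which adds no further support. Groups that do not overlap still do not with a library left out. A call lost in this way therefore reflects the coarse steps of the exact p and its adjustment, and does not rank the 5 ratios.
Racgap1 thus rose less than Kif23. Bub1 to Bub3 went from 0.395 ± 0.0147 to 0.469 ± 0.0315 (log2 difference 0.24), Spc25 to Ndc80 from 1.30 ± 0.0483 to 1.14 ± 0.0903 (-0.19) and Ccnb2 to Ccnb1 from 1.0997 ± 0.0425 to 0.993 ± 0.0116 (-0.15). Kif4a to Prc1 moved least, from 0.154 ± 0.00212 to 0.161 ± 0.00261 (0.06). The adjusted p of Bub1 to Bub3 rose to between 0.0508 and 0.0635 without CON replicate 2, 3, 4 or 5, and that of Spc25 to Ndc80 to between 0.0544 and 0.0794 without any 1 of the CON libraries. For Ccnb2 to Ccnb1 it was 0.0508 without HG replicate 1, 3, 4 or 5, and for Kif4a to Prc1 0.0508 without HG replicate 3 and 0.0544 with a pseudocount of 1.
The other 11 ratios did not pass the test. Among them were Nuf2 to Ndc80, at 1.71 ± 0.164 in CON and 1.70 ± 0.133 in HG (exact permutation test, p = 0.960), Incenp to Aurkb at 0.527 ± 0.0379 and 0.535 ± 0.0344 (p = 0.730), Smc4 to Smc2 at 1.82 ± 0.0780 and 1.77 ± 0.0590 (p = 0.349), and Espl1 to Pttg1 at 0.318 ± 0.0495 and 0.315 ± 0.0163 (p = 0.976). Cdc25c to Cdc25b had the largest difference, from 0.0739 ± 0.0111 to 0.113 ± 0.0192 (log2 difference 0.59, exact permutation p = 0.0238, adjusted p = 0.0544). It passed without HG replicate 2 (0.68, adjusted p = 0.0254), as did Ncapg to Smc2 (0.10, adjusted p = 0.0363). Birc5 to Aurkb passed without CON replicate 1 (0.21, adjusted p = 0.0254), and Cdk1 to Ccnb1 without CON replicate 3 (-0.14, adjusted p = 0.0317).

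Genes that share these roles but are not members mostly rose as well. Of 124 further mitotic genes tested, out of 126 listed, 103 rose and 2 fell, beside 28.4% of all genes tested called higher and 11.8% lower. The median log2 fold change of the 124 was 0.35. The smallest adjusted p among them belonged to Dlgap5, a spindle assembly factor (0.56, adjusted p = 2.24e-06), Fbxo5, the inhibitor Emi1 of the anaphase-promoting complex (0.43, adjusted p = 9.45e-06), and Cenpt of the inner kinetochore (0.71, adjusted p = 1.24e-05). Tacc3, which stabilises kinetochore fibres, and Zwint, of the outer kinetochore, followed with 0.60 and 0.43. The 2 that fell were Lin52, a MuvB subunit at a low level, from 1.09 ± 0.0430 to 0.839 ± 0.0730 FPKM (-0.34, adjusted p = 0.0159), and Sgo2, a shugoshin protecting centromeric cohesin, from 16.4 ± 1.196 to 14.1 ± 1.33 FPKM (-0.22, adjusted p = 0.0265). Sgo2 lost its call with the replicate number as a block (adjusted p = 0.0637) and without CON replicate 1, 2 or 4 or HG replicate 2 (0.0525 to 0.0611).
With median-of-ratios factors 83 of the further mitotic genes were higher and 3 lower, where 15.6% of all genes were higher. After quantile normalization 84 were higher and 2 lower, where 18.0% of all genes were higher. By role and with the FPKM as deposited, 14 of 14 further genes of condensin and cohesin rose, 6 of 6 of cytokinesis, 28 of 30 of the spindle and 23 of 27 of the kinetochore. Of 5 genes grouped with the passenger complex by related role, not as its subunits, 4 rose and Sgo2 fell. These were Cdca8, Sgo1, Sgo2, Haspin and Cdca2. The counts were 8 of 10 for mitotic entry, 6 of 8 for transcription with Lin52 lower, 10 of 17 for anaphase onset and 4 of 7 for the spindle checkpoint. Subunits of the anaphase-promoting complex itself, which are 14 of the 17 genes of anaphase onset, rose in 7 cases with a median of 0.17.

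**Figure D4:**
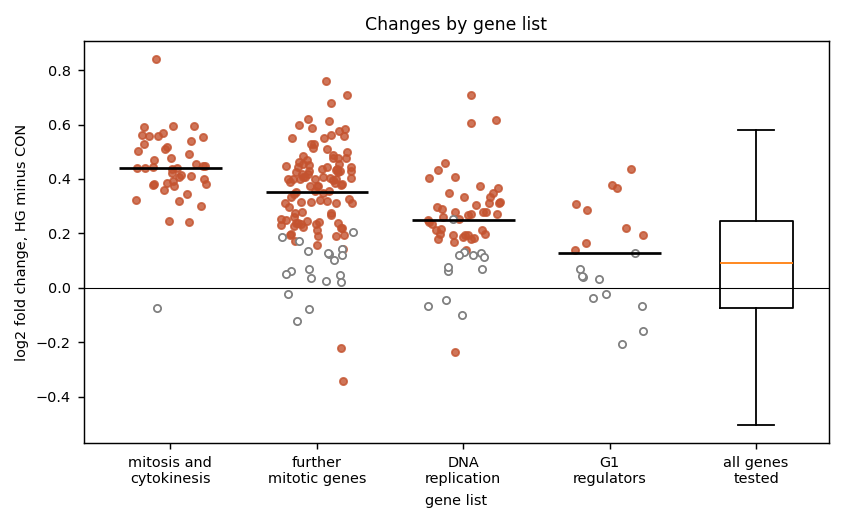
Log2 fold change (vertical axis, HG minus CON) of each gene in 4 lists, with the list median as a black bar, filled points for an adjusted p under 0.05 and open points otherwise. The box gives the middle 50% and the whiskers the 5th to 95th percentile (-0.50 to 0.58) of all genes tested; list medians fall from 0.44 over 0.35 and 0.25 to 0.13.

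Genes of other phases of the cycle were counted with the same fit. In it 28.4% of all genes tested were called higher and 11.8% lower, with a median log2 fold change of 0.09. Of 57 tested DNA replication genes, 44 rose and 1 fell (median 0.25), led by Rfc5 of the clamp loader (0.61, adjusted p = 1.20e-06), the thymidine kinase Tk1 (0.40, adjusted p = 2.27e-05) and Tipin of the replication fork (0.62, adjusted p = 2.61e-05). The one that fell was Pole4, a subunit of polymerase epsilon (-0.23, adjusted p = 0.00356). After quantile normalization 29 genes of this list were higher, where 18.0% of all genes were, and under median-of-ratios factors 22, where 15.6% of all genes were. Of 19 tested G1 cyclins, kinases and inhibitors, 9 rose and 0 fell (median 0.13; at an unadjusted p under 0.05, 9 were higher and 1 lower), among them Cdk4 (0.38, adjusted p = 6.29e-06), Cdk2 (0.29, adjusted p = 0.000468) and the inhibitor Cdkn1c (0.43, adjusted p = 0.000598). With median-of-ratios factors 6 G1 regulators were higher and 1 lower, and after quantile normalization 7 were higher and 1 lower. The differences between the lists were not tested.
In the authors' annotation, 15 of the 44 members carried the GO term cell division, which 1.37% of tested genes carried, 16 the term kinetochore (0.729%) and 14 the term centromeric region of a chromosome (0.344%). Of the 184 other tested genes under cell division, 103 rose and 10 fell (median 0.19). Of 104 tested genes of the KEGG pathway Cell cycle that are not members, 66 rose and 1 fell (median 0.21). Over all genes tested, 28.4% were called higher and 11.8% lower.

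Other cells in the sample were followed through 10 marker lists. The cardiomyocyte gene Tnnt2 was at 3953 FPKM in CON, and RNA of other cells was present, with the fibroblast gene Col1a1 at 580.6 FPKM in CON and the endothelial gene Pecam1 at 64.9 FPKM. The summed level of 6 cardiomyocyte markers was lower in HG, 6048 to 6491 FPKM against 7414 to 7916 FPKM in CON, with 5 of 6 genes called lower (two-sided exact permutation test, p = 0.00794, adjusted p = 0.0198 over 10 lists). Smooth muscle and pericyte markers had a higher sum, 858.6 to 1088 against 700.5 to 814.1 FPKM (exact permutation test, p = 0.00794, adjusted p = 0.0198). Acta2 alone held 538 of a mean of 781 FPKM in CON and 673 of 938 in HG, so the sum mainly followed this gene. Of the 6 genes, 2 were called higher (Acta2 and Tagln) and 2 lower (Rgs5 and Cspg4). Macrophage markers had 33.0 to 43.4 against 28.3 to 35.1 FPKM, with 3 of 6 genes called higher (exact permutation p = 0.0238, adjusted p = 0.0476). The sums of the endothelial, fibroblast, epicardial and glial lists had exact permutation p between 0.0714 and 0.929. Single genes of these lists were called, with 2 of 6 endothelial genes higher (Tie1 and Emcn), 2 of 6 fibroblast genes higher (Pdgfra and Tcf21) and 2 lower (Dcn and Postn), 1 of 4 epicardial genes lower (Upk1b) and 0 of the 2 tested glial genes. These genes are named because their counts are small, after their values were seen. Beside the counts of the marker lists, 28.4% of all genes tested were called higher and 11.8% lower. The part of these marker differences in the increase of the mitotic genes was not tested.
The lists also covered 2 cell types of other origin that divide. The 8 markers of erythroid precursors, which divide in fetal blood, summed to 49.4 to 84.5 FPKM in CON and to 32.5 to 47.1 FPKM in HG, where 4 of 8 were called lower and 0 higher (exact permutation test, p = 0.00794, adjusted p = 0.0198). Alas2, itself not called, held 38.0 of a mean of 62.0 FPKM in CON and 26.3 of 42.5 in HG. Thymocyte markers summed to 2.13 to 3.22 and 2.49 to 2.96 FPKM (exact permutation p = 0.310), and 4 of the 7, Ptcra, Cd3e, Rag1 and Dntt, were under the filter of 0.1 FPKM. Of the 3 tested, Lck was called higher, from 0.314 ± 0.103 to 0.539 ± 0.152 FPKM (SD; log2 change 0.63, adjusted p = 0.0453), and Cd8a and Cd4 were not called. The part of either cell type in the result was not tested.
Liver markers stood apart in CON replicate 3, at 73.0 FPKM against 3.12 to 7.22 in the other CON libraries and 0.852 to 2.40 in HG, with 4 of 4 genes called lower (exact permutation test, p = 0.00794, adjusted p = 0.0198). That library was also the lowest of CON for most mitotic genes, and the 43 calls were made without it. Hemoglobin genes held 2.30 to 4.25% of the FPKM in CON and 1.89 to 2.58% in HG, and leaving them out gave 43 members higher with a median of 0.43.

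**Figure D5:**
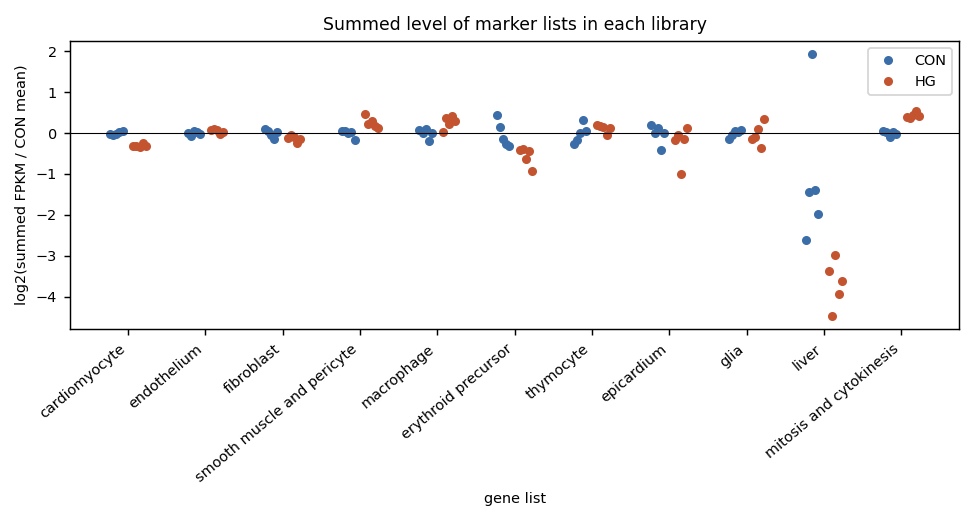
Summed FPKM of each marker list in each library as log2 of the ratio to the list's CON mean, with CON in blue and HG in orange, and the 44 mitosis and cytokinesis genes at the right for comparison. Cardiomyocyte, erythroid precursor and liver lists lie lower in HG, and the mitotic genes lie higher in each HG library (1691 to 1885 FPKM) than in each CON library (1216 to 1352 FPKM).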

How the data were processed

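Fetal rat heart RNA was measured in 10 libraries, 5 CON and 5 HG, made with a stranded mRNA kit. The deposited values are FPKM, which the authors computed per gene and library. Their processing notes name fastp, HISAT2, HTSeq and R 3.2.0 with build mRatBN7.2, and the roles and other versions are not given in the sources used here. The study's methods name a test that takes counts, so limma 3.58.1 in R 4.3.3 was used on log2(FPKM + 0.1) with a trend on expression. Genes with an average of 0.1 FPKM or more were tested, a fold change is on that shifted scale, and Benjamini-Hochberg adjustment ran over 14542 genes.

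FPKM values of all 18025 genes were whole multiples of a step within 0.02 reads. The reads recovered from them totalled 17639895 to 18240006 on genes in CON and 16672876 to 19109844 in HG, and voom on these reads called 5961 genes against 5836 with limma on FPKM. Reads of overlapping genes were not separated further. Recovery and fit were tested on simulated data.

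The members, the other lists and the tests were chosen with earlier results of these data known. In each of 9 roles the member with the smallest and the one with the largest adjusted p, and the 5 with the largest change, were given in every library. From the other lists the called genes with the smallest adjusted p were named, 5 of the further mitotic genes and 3 of each other list in each direction. Single values per library were compared by exact permutation. Alternatives were other pseudocounts, filters and scalings, weights, covariates, voom, and leaving out each library. Promoters came from RefSeq (GRCr8), searched with exact letters only.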

Additional observations from a re-analysis of the deposited data

Results flagged for a closer look

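A library at the end of its group's range was called apart when its gap to the next library, divided by the group's whole range, exceeded Dixon's 95% critical value for 5 libraries. Chance alone gives this in about 1 of 20 groups, or 7.1 of the 142 groups looked at, and 8 were found. Among the mitosis and cytokinesis genes, Kif23 was lowest in CON replicate 3 at 20.7 FPKM, and Racgap1 was highest in HG replicate 4 at 46.5 FPKM. Of the other named genes, Fbxo5 was highest in HG replicate 4 at 19.03 FPKM, and HG replicate 2 was lowest for Tipin at 15.9 FPKM and for Pole4 at 16.9 FPKM. The summed cardiomyocyte markers were highest of HG in replicate 4 at 6491 FPKM, the smooth muscle and pericyte markers lowest of CON in replicate 5 at 700.5 FPKM, and the liver markers highest of CON in replicate 3 at 73.0 FPKM. The calls of Kif23 and Racgap1 were made without each of these libraries too.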

How the results depend on the processing

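Each of the 44 genes kept its direction and its side of the threshold in 22 alternatives, 968 comparisons in all. Requiring a log2 fold change above 1 as well left 0 members higher. The median log2 fold change of the members was 0.35 with median-of-ratios factors, 0.40 to 0.44 in the other alternatives with all libraries, and 0.41 to 0.46 when a library was left out. Scaling moved the split of calls over all genes, with 70.7% of called genes higher as deposited, 53.0% after quantile normalization and 47.1% with median-of-ratios factors.

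DNA replication genes called higher numbered 44 as deposited, 29 after quantile normalization and 22 with median-of-ratios factors, and under either scaling 1 G1 regulator was called lower. In the same order the further mitotic genes called higher numbered 103, 84 and 83, and the G1 regulators 9, 7 and 6. Further mitotic genes called lower numbered 3 with median-of-ratios factors, 1 with a filter of 1 FPKM, where Lin52 was not tested, and 1 with the replicate block. Leaving out a library gave 1 to 2 for the further mitotic genes and 0 to 1 for the G1 regulators, the 1 being Cdkn2c without CON replicate 3 or HG replicate 4. The replicate numbers did not pair the libraries, since deviations of same-numbered libraries correlated at -0.126 to 0.108. With the block, 43 members and 5096 genes in all were called.

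Ratios between members and their alternatives were chosen after the data were seen. Of those that did not pass the test, Nuf2 to Ndc80 turned to 0.0029 (log2) with a pseudocount of 1, and Espl1 to Pttg1 to 0.00023 with 0.01. Without a library, log2 ratios ranged from -0.0108 to 0.0492 for Incenp to Aurkb, from -0.0673 to 0.0196 for Nuf2 to Ndc80, from -0.0419 to 0.0158 for Bub1b to Bub1 and from -0.0512 to 0.0591 for Espl1 to Pttg1. Depth was even, and the least covered member had 200 reads in its lowest library.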
